A study of Mus musculus with 15 samples.

Results

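The prolactin receptor gene Prlr, the transcription factor genes Elf5 and Stat5a, and 6 milk protein genes (Csn1s1, Csn1s2a, Csn2, Csn3, Wap and Lalba) were followed in whole primary mammary tumours of mice. These 9 genes were chosen by symbol, and every transcript cluster that carried one of the symbols was kept. A transcript cluster is the set of probes that an Affymetrix Mouse Gene 1.0 ST array uses for a gene or a stretch of it. Prlr had 2 clusters and each of the other genes had 1, which gave 10 of the 35556 clusters on the array. No filter on low signals was applied, so all 10 were tested.

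The series holds 15 tumours, 3 of each of 5 types, each taken from a separate female mouse and grown in the 4th inguinal mammary fat pad. Tumours of 67NR (non-metastatic), 4T1.2 (metastatic) and EMT6.5 (metastatic) were grown in Balb/c mice, and those of EO771 (non-metastatic) and EO771.LMB (metastatic) in C57Bl/6 mice. The labels give an age of 6 to 8 weeks, whereas the methods give another age. 67NR and 4T1 came from one parental tumour, and 4T1.2 is a single-cell clone of 4T1. EO771.LMB was derived from a lung metastasis of labelled EO771 cells, and EMT6.5 is a single-cell clone of EMT6. 67NR with 4T1.2, and EO771 with EO771.LMB, are therefore isogenic pairs, and EMT6.5 has no partner here. Whole tumours include the stroma of the host, and in such samples fewer cells of a type and less RNA per cell cannot be told apart. Host strain and tumour line go together, so a difference between a Balb/c type and a C57Bl/6 type cannot be assigned to one of them.

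Prolactin is a pituitary hormone that drives the secretory differentiation of mammary epithelium in pregnancy and lactation. Its receptor has no kinase of its own and signals through the bound kinase Jak2, which phosphorylates Stat5a. Stat5a then enters the nucleus and acts on genes such as the caseins. Elf5 is an ETS factor of alveolar progenitor cells that acts beside Stat5a. The caseins form the micelles of milk, Wap encodes whey acidic protein, and Lalba encodes alpha-lactalbumin, the regulatory subunit of lactose synthase.

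In the RefSeq table of GRCm38.p6, 4 caseins lie in one cluster on chromosome 5, with Csn1s1 at chr5:87666208-87682578, Csn2 at chr5:87692619-87699429, Csn1s2a at chr5:87774450-87788798 and Csn3 at chr5:87925579-87932550. Prlr lies at chr15:10177238-10349190, Lalba at chr15:98480400-98482934, Stat5a at chr11:100859351-100885169, Wap at chr11:6635483-6638654 and Elf5 at chr2:103412098-103450989. The build behind the array annotation is not given in the sources used here, and these positions are those of RefSeq.

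The palindrome TTCNNNGAA is the core that Stat5 proteins bind, and it reads the same on both strands. RefSeq promoter windows, taken as the 250 bases before each annotated start, were matched for 8 of the 9 genes, and Csn3 was not matched. The motif stood in 3 of these 12 windows, against 7.02% of all 32851 windows. The sequences around it are shown for the milk protein genes Csn1s1 and Csn2, for 1 of the 3 annotated starts of Prlr, and for Glycam1, a milk mucin gene that prolactin induces in mouse mammary epithelium. Capitals mark the motif, and each run reads 5′ to 3′ on the strand of the gene.
Csn1s1 (chr5:87666083-87666141, plus strand): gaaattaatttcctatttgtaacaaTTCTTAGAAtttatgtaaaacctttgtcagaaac
Csn2 (chr5:87699485-87699543, minus strand): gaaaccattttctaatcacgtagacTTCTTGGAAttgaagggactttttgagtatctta
Prlr (chr15:10223771-10223829, plus strand): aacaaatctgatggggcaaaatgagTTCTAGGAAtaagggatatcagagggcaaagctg
Glycam1 (chr15:103565193-103565251, minus strand): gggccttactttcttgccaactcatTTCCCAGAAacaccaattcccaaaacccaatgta
The motif began 100 bases before the start in Csn1s1, 93 in Csn2, 110 in Prlr and 145 in Glycam1. The windows of Elf5, Wap, Stat5a, Csn1s2a and Lalba, and the other Prlr windows, did not hold these letters. The windows of Lalba and Stat5a lay inside the gene positions given above, so the bases before those gene starts were not searched. A match of letters is a description of the sequence, and binding was not measured.

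The deposited values are log2 signals, so a step of 1 is a doubling. The array gives no detection call here, and probes differ in how brightly they read, so levels were compared between tumours and not between genes. As a guide to the low end, the 1148 clusters of olfactory receptor genes, which most tissues do not express, had mean log2 signals of 4.73 to 6.17 from the 5th to the 95th percentile. The 8 clusters of Y-linked genes, in female hosts, had means of 4.18 to 7.29. Csn1s1, Csn1s2a, Csn2, Wap and Lalba exceeded the olfactory 95th percentile of the same array in 0 of 15 tumours, and Elf5 in 1. Stat5a exceeded it in 15, Csn3 in 13, and the Prlr clusters in 12 and 7. The luminal keratin gene Krt8 was high throughout, with type means of 9.83 to 10.65. Epcam, an epithelial adhesion gene, had type means of 5.55 to 6.13.

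Differences were tested with limma, in one model of tumour type over all 15 tumours. Adjustment was made within each comparison across the whole array (Benjamini-Hochberg), and a cluster was called where the adjusted value was under 0.05. Among the 5 types, 2 of the 10 member clusters were called, Csn3 (adjusted p = 0.027 from limma) and Wap (adjusted p = 0.044), whereas 43.1% of all clusters were called. The Wap call held in 7 of 21 alternatives (adjusted p-values of 0.024 to 0.14) and ended, among others, after centring on array medians and after quantile normalization. The Csn3 call held in 18 of 22 (adjusted p-values of 3.7e-04 to 0.09) and ended without EO771.LMB tumour 2 or 3 or EMT6.5 tumour 2 and with one-way analysis of variance. The 4T1.2 minus 67NR comparison called 0 of 10 (17.8% of all clusters, 8.69% higher and 9.12% lower), with 2 at an unadjusted p under 0.05, where 29.5% of all clusters were. EO771.LMB minus EO771 called 0 of 10 (0.0197% of all clusters, all of them lower and 0% higher), with 4 at an unadjusted p under 0.05, where 8.30% of all clusters were. One-way analysis of variance also called 0 in each pair. Where all tumours of a type lay above or below those of another, this describes the values. The share of all clusters separated in that way is not given here.

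Prlr was the member that varied most, and most of its range lay between tumours of one type. In its brighter cluster (10423049), the log2 signals were 6.69, 7.61 and 6.4 in 67NR and 6.29, 7.15 and 6.75 in 4T1.2. EO771 tumours read 7.27, 7.64 and 7.16, and EO771.LMB tumours 6.58, 5.40 and 5.13. The EMT6.5 tumours read 8.77, 6.97 and 4.94. The highest and the lowest Prlr signals of the series were therefore both in EMT6.5. All EO771.LMB tumours lay below all EO771 tumours. All 4T1.2 tumours did too, but the nearest read 7.15 against 7.16. EO771 minus 4T1.2 was 0.63 (standard error 0.69, adjusted p = 0.53 from limma).

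The second Prlr cluster (10423030) gave the same picture. Its log2 signals were 6.38, 6.89 and 6.05 in 67NR and 6.09, 6.21 and 5.84 in 4T1.2. EO771 tumours read 6.53, 6.85 and 6.39, and EO771.LMB tumours 5.86, 4.65 and 5.02. In EMT6.5 they were 8.22, 6.75 and 4.60. After each cluster was centred on its mean, the 2 clusters differed by a root mean square of 0.27 over the 15 tumours, while the brighter one itself varied by 0.98.

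**Figure D1:**
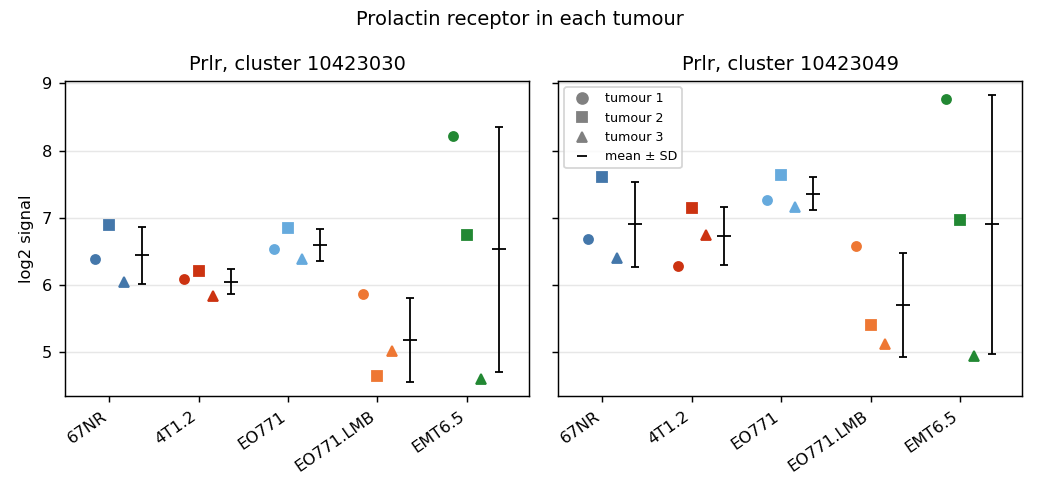
Log2 signal of the 2 Prlr clusters in each of the 15 tumours (points, by tumour number) with the mean and SD of the 3 tumours of a type (bars). EO771.LMB tumours lie below EO771 tumours in both clusters, and the EMT6.5 tumours run from 8.77 to 4.94 in the brighter cluster.

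By mean signal, the brighter cluster ran from EO771 (7.36 ± 0.25, SD, n = 3) through 67NR (6.90 ± 0.63), EMT6.5 (6.90 ± 1.92) and 4T1.2 (6.73 ± 0.43) to EO771.LMB (5.70 ± 0.77). No neighbours in this order differed beyond their spread, with adjusted p-values of 0.70, 1, 0.91 and 0.30 from limma. Prlr in EO771.LMB against EO771 is the comparison for which the study named this gene, from these same tumours. The study reported Prlr as significantly lower in EO771.LMB. It proposed that weaker Prlr signalling might account for the lower Glycam1 there. The log2 difference was -1.65 (standard error 0.69) in the brighter cluster and -1.41 (standard error 0.62) in the other, ratios of 3.15 and 2.66. One side of these ratios lay near the low end, since EO771.LMB exceeded the olfactory 95th percentile in 1 and 0 of 3 tumours. The unadjusted p-values from limma were 0.031 and 0.039, and the adjusted ones 0.55 and 0.58. One-way analysis of variance gave unadjusted p-values of 0.068 and 0.081. The standard errors include the spread of the EMT6.5 tumours. With EMT6.5 left out of the model, which was tried only after these values were known, they fell to 0.38 and 0.28, and the adjusted p-values were 0.20 and 0.15.

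In the 4T1 pair the Prlr groups overlapped. The log2 differences of 4T1.2 minus 67NR were -0.17 (standard error 0.69, adjusted p = 0.90 from limma) and -0.39 (standard error 0.62, adjusted p = 0.74). The smaller of them turned positive when 67NR tumour 2 (0.18) or 4T1.2 tumour 1 (0.05) was left out. The change in the EO771 pair minus that in the 4T1 pair was -1.48 (standard error 0.97, adjusted p = 0.43) and -1.02 (standard error 0.88, adjusted p = 0.58), so a difference between the pairs was not shown. That test called 10.2% of all clusters and 0 of the 10 member clusters, with 2 at an unadjusted p under 0.05 (22.0% of all clusters), and one-way analysis of variance called 0 as well.

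Stat5a, the factor that the receptor activates, varied little. The 67NR tumours read 7.58, 7.04 and 6.96 on the log2 scale, and the 4T1.2 tumours 6.71, 7.08 and 6.76. EO771 tumours read 6.66, 6.74 and 6.84, EO771.LMB tumours 6.65, 6.57 and 6.59, and EMT6.5 tumours 6.68, 6.89 and 7.04. 67NR was highest, and its tumours did not overlap with those of either C57Bl/6 type. EO771.LMB minus 67NR was -0.59 (standard error 0.16, adjusted p = 0.0095 from limma), where 28.8% of all clusters were called. EO771 minus 67NR was -0.45 (adjusted p = 0.046), with 27.3% of all clusters called. The second call ended when 67NR tumour 1 was left out (-0.25, adjusted p = 0.22), and also without any 1 EO771 tumour (adjusted p-values of 0.064 to 0.13), among other settings. Within the pairs Stat5a was not called, with -0.35 for 4T1.2 minus 67NR (adjusted p = 0.15) and -0.15 for EO771.LMB minus EO771 (adjusted p = 0.89).

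The highest Elf5 signals were in 2 EMT6.5 tumours. The EMT6.5 tumours read 6.12, 6.24 and 5.18, and the 12 other tumours lay between 5.09 and 5.65. EO771 was the most uniform, at 5.12, 5.11 and 5.09. EMT6.5 minus EO771 was 0.74 (standard error 0.20, adjusted p = 0.016 from limma), where 23.7% of all clusters were called. The call ended without EMT6.5 tumour 1 (0.60, adjusted p = 0.076) or tumour 2 (0.54, adjusted p = 0.081). It also ended when only these 2 types were fitted (adjusted p = 0.085). The difference rose to 1.07 without tumour 3 (adjusted p = 1.6e-05). For 4T1.2 minus 67NR the log2 difference of Elf5 was -0.12 (adjusted p = 0.76), and for EO771.LMB minus EO771 it was 0.17 (adjusted p = 0.91).

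Csn3, which encodes kappa-casein, the casein that stabilises the micelle surface, was the milk gene with the widest range. Its log2 signals were 6.54, 6.95 and 6.34 in 67NR and 7.02, 7.48 and 7.17 in 4T1.2. EO771 tumours read 7.16, 6.59 and 7.01, and EO771.LMB tumours 6.43, 5.77 and 5.84. In EMT6.5 they were 8.31, 7.66 and 6.43. All 4T1.2 tumours lay above all 67NR tumours, and all EO771.LMB tumours lay below all EO771 tumours. In the EO771 pair both Prlr clusters, Elf5, Stat5a and Wap also had no overlap, and none of them was called.

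The mean differences of Csn3 had opposite signs in the 2 pairs. The log2 difference was 0.62 for 4T1.2 minus 67NR (standard error 0.36, adjusted p = 0.28 from limma) and -0.91 for EO771.LMB minus EO771 (standard error 0.36, adjusted p = 0.52). Neither passed the test. The difference between the pair changes was -1.52 (standard error 0.51, adjusted p = 0.077). It passed when EMT6.5 tumour 1 (adjusted p = 0.03) or tumour 3 (adjusted p = 0.0094) was left out, and with all EMT6.5 tumours out of the model (adjusted p = 0.0073), while over all alternatives the adjusted p ran from 0.0073 to 0.16. Between the metastatic types, EO771.LMB minus 4T1.2 had a Csn3 difference of -1.21 (standard error 0.36, adjusted p = 0.018), where 30.6% of all clusters were called. This call ended without 4T1.2 tumour 2 (-1.08, adjusted p = 0.067), EO771.LMB tumour 2 (-1.09, adjusted p = 0.066) or EO771.LMB tumour 3 (-1.12, adjusted p = 0.063), and with one-way analysis of variance (adjusted p = 0.051). EMT6.5 minus EO771.LMB was 1.45 (standard error 0.36, adjusted p = 0.0075), with 24.3% of all clusters called, although EMT6.5 tumour 3 and EO771.LMB tumour 1 both read 6.43. This call ended when only these types were fitted (adjusted p = 0.053).

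The other caseins had low and even signals. Csn2, which encodes beta-casein, read 5.31, 5.71 and 5.72 in 67NR and 5.82, 6.00 and 6.10 in 4T1.2. The 4T1.2 tumours all lay above 67NR, and the log2 difference of 0.39 (standard error 0.15) did not pass the test (unadjusted p = 0.018, adjusted p = 0.083 from limma). Csn2 lay between 5.54 and 5.99 in the other 3 types, with a difference of 0.04 in the EO771 pair (adjusted p = 0.98).

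Csn1s2a, an alpha-S2 casein gene, read 5.43, 5.82 and 5.61 in 4T1.2 and 5.0 to 5.52 in the other tumours. It was lower than in 4T1.2 in EMT6.5 (-0.40, standard error 0.13, adjusted p = 0.043 from limma, 16.3% of all clusters called) and in EO771 (-0.39, adjusted p = 0.032, 30.4% of all clusters called). Both calls ended without 4T1.2 tumour 2 (adjusted p = 0.17 and 0.13), among other settings. In the pairs it differed by 0.19 (adjusted p = 0.35) and 0.22 (adjusted p = 0.71). Csn1s1, an alpha-S1 casein gene, lay between 4.69 and 5.20 in the 12 tumours other than EMT6.5. The EMT6.5 tumours read 5.23, 5.71 and 4.63, so the highest and the lowest value were again in that type, and no comparison over all 15 tumours called it.

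Wap and Lalba, the whey genes, had signals below the olfactory 95th percentile in all 15 tumours. Wap read 5.28, 5.31 and 5.37 in EO771, below every other tumour, and 5.63, 5.60 and 5.54 in EO771.LMB. It read 5.47, 5.67 and 5.83 in 67NR, 5.78, 5.57 and 5.40 in 4T1.2 and 5.79, 5.69 and 5.81 in EMT6.5. EMT6.5 minus EO771 was 0.44 (standard error 0.11, adjusted p = 0.0095 from limma) and was called in every setting run. EO771 minus 67NR was -0.34 (adjusted p = 0.037), a call that ended without 67NR tumour 2 or 3 or any EO771 tumour (adjusted p-values of 0.064 to 0.16), among other settings. EO771.LMB lay above EO771 by 0.27 (standard error 0.11, unadjusted p = 0.029, adjusted p = 0.54), and the 4T1 pair differed by -0.07 (adjusted p = 0.72). Lalba lay between 5.21 and 5.77 in all tumours, and no comparison called it.

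**Figure D2:**
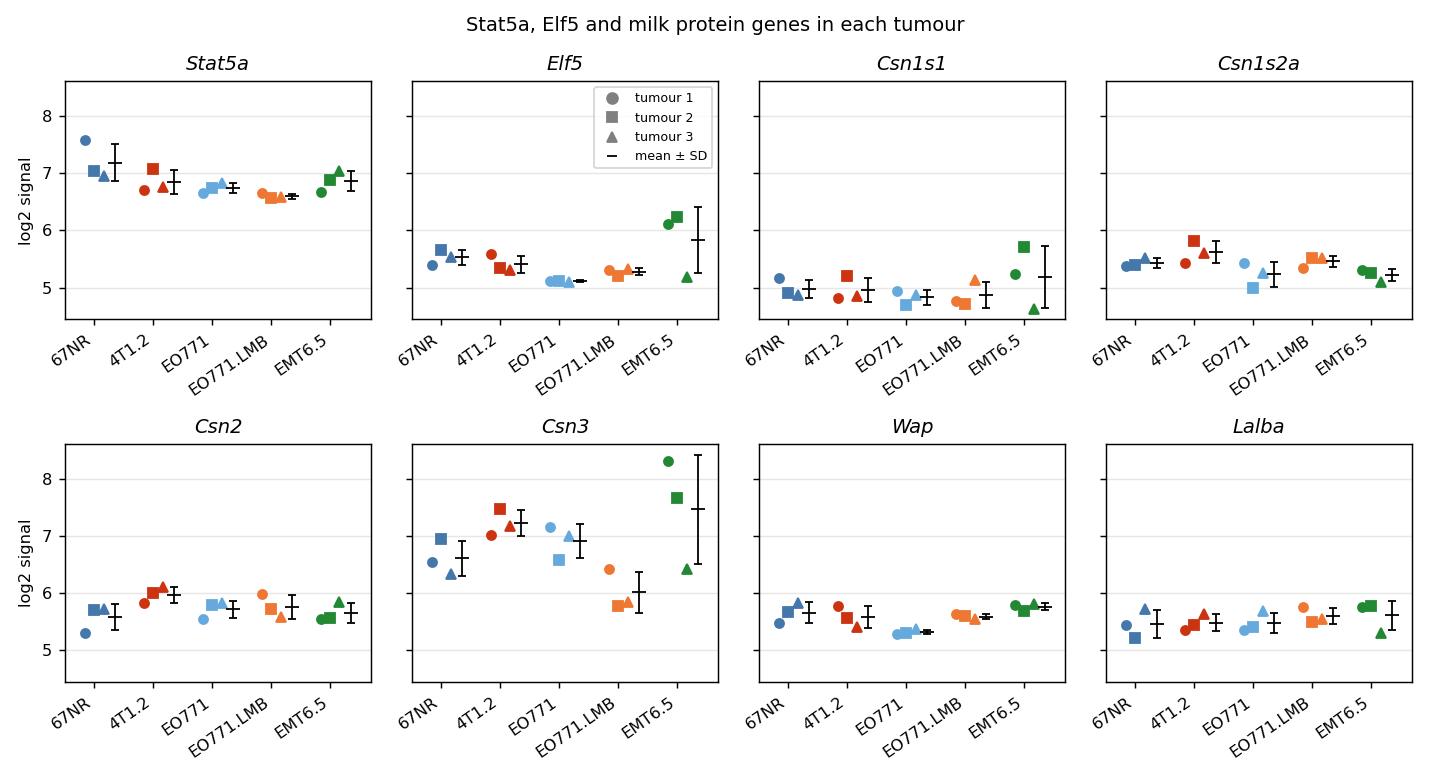
Log2 signal of Stat5a, Elf5, the caseins, Wap and Lalba in each tumour (points, by tumour number) with the mean and SD of the 3 tumours of a type (bars), on one axis. Csn3 reaches 8.31 in EMT6.5 tumour 1, while Csn1s1, Csn1s2a, Csn2, Wap and Lalba stay between 4.63 and 6.10.

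Over the 10 comparisons of one type with another, limma made 9 calls among the member clusters. None of them was in Prlr or inside an isogenic pair. In these comparisons 0% to 20.0% of the member clusters and 0.0197% to 30.6% of all clusters were called. The member share was below that of all clusters in each comparison. EMT6.5 minus 67NR called 18.0% of all clusters and 0 of the 10 member clusters, with 1 at an unadjusted p under 0.05 (28.9% of all clusters). The 10 member clusters had a median log2 difference of -0.05 for 4T1.2 minus 67NR and of 0.04 for EO771.LMB minus EO771, against 0.05 and 0.01 over all clusters.

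**Figure D3:**
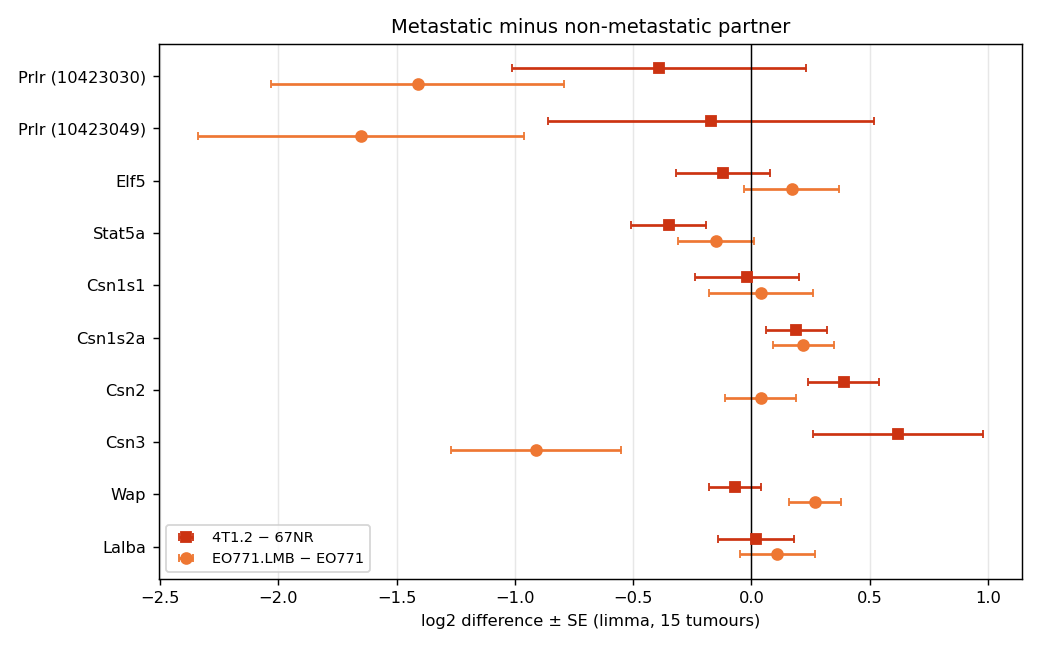
Log2 difference (horizontal axis) of the metastatic minus the non-metastatic type for each of the 10 member clusters, with the standard error from limma, in the 4T1 pair (squares) and the EO771 pair (circles). Both Prlr clusters and Csn3 have the most negative values in the EO771 pair (-1.41, -1.65 and -0.91), while Csn3 is at 0.62 in the 4T1 pair.

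The 3 EMT6.5 tumours differed from each other more than those of any other type in Prlr, Csn3, Elf5 and Csn1s1. The SD of the brighter Prlr cluster in EMT6.5 was 1.92, and 15 of the 35556 clusters (0.0422%) had one as large, while the median was 0.15. The SD of Csn3 there was 0.96, reached by 0.321% of clusters, that of Elf5 0.58 (2.52%) and that of Csn1s1 0.54 (3.20%). In EO771.LMB the brighter Prlr cluster had an SD of 0.77 (0.692% of clusters), with tumour 1 above the other two. These shares describe where the members lie among all clusters and are not tests, since the pattern was seen before it was counted.

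In EMT6.5, tumour 3 was the low one. Both Prlr clusters, Csn3, Elf5 and Csn1s1 were lower there by more than 0.5 on the log2 scale than in tumours 1 and 2, which makes 5 of 10 member clusters against 2.05% of all clusters. Stat5a, Csn2 and Wap were highest in tumour 3. Without tumour 3, limma called 4 member clusters among the 5 types in place of 2, namely both Prlr clusters (adjusted p = 0.026 and 0.0038), Elf5 (adjusted p = 6.3e-05) and Csn3 (adjusted p = 3.7e-04). It also made 21 calls over the 10 comparisons in place of 9. The share of all clusters called in that fit is not given here, so the rise was not set against the whole array. Tumour 3 was singled out by its low values, so leaving it out raises the EMT6.5 means of these genes and narrows their spread by construction.

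Some other epithelial and secretory genes of the lists were low in the same tumour, and others were highest in it. By the margin of 0.5, tumour 3 was the low one in 7 of 24 other milk and secretory genes and in 7 of 24 luminal genes. Muc15, a mucin gene of the milk fat globule membrane, read 5.76, 6.53 and 4.48 in the EMT6.5 tumours. The milk fat globule gene Btn1a1 read 5.83, 5.65 and 4.63, the lactoferrin gene Ltf 5.79, 5.28 and 4.55, and Wfdc18 7.23, 8.01 and 5.64. The luminal genes included the keratin gene Krt19 (7.44, 5.93 and 4.99), Epcam (6.76, 6.4 and 5.24) and Gata3 (7.50, 7.46 and 6.29). Krt8 (10.47, 10.55 and 10.55) and Krt18 (9.37, 9.69 and 10.14) did not follow this order. The luminal genes Spint1, Cd14 and Aldh1a3 were highest in tumour 3. So were the milk and secretory genes Xdh, Lpo, Wfdc2, Fabp3, Atp2b2, B4galt1 and Aqp5. Of these, B4galt1 read 10.81, 10.85 and 11.09, and Wfdc2 read 9.52, 9.25 and 9.7.

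Markers of other cell types also differed among the EMT6.5 tumours. The means of the luminal and myoepithelial lists were, like Prlr and Csn3, highest in tumour 1 and lowest in tumour 3. The B cell mean was high in tumour 1 and nearly equal in tumours 2 and 3. Those of muscle and adipocytes were lowest in tumour 2. The mean log2 level of 10 B cell genes was 6.79 in tumour 1 and 5.32 and 5.27 in tumours 2 and 3, that of 10 skeletal muscle genes was 7.61, 5.41 and 8.32, and that of 17 adipocyte genes was 6.99, 6.62 and 6.68. The mean of the 24 luminal genes was 6.97, 6.85 and 6.59 and that of the 12 myoepithelial genes 6.85, 6.79 and 6.65. By the margin of 0.5, tumour 3 was the low one in 0 of 10 B cell, 0 of 10 muscle, 0 of 17 adipocyte and 1 of 12 myoepithelial genes. The part of these cell types in the member values was not tested.

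**Figure D4:**
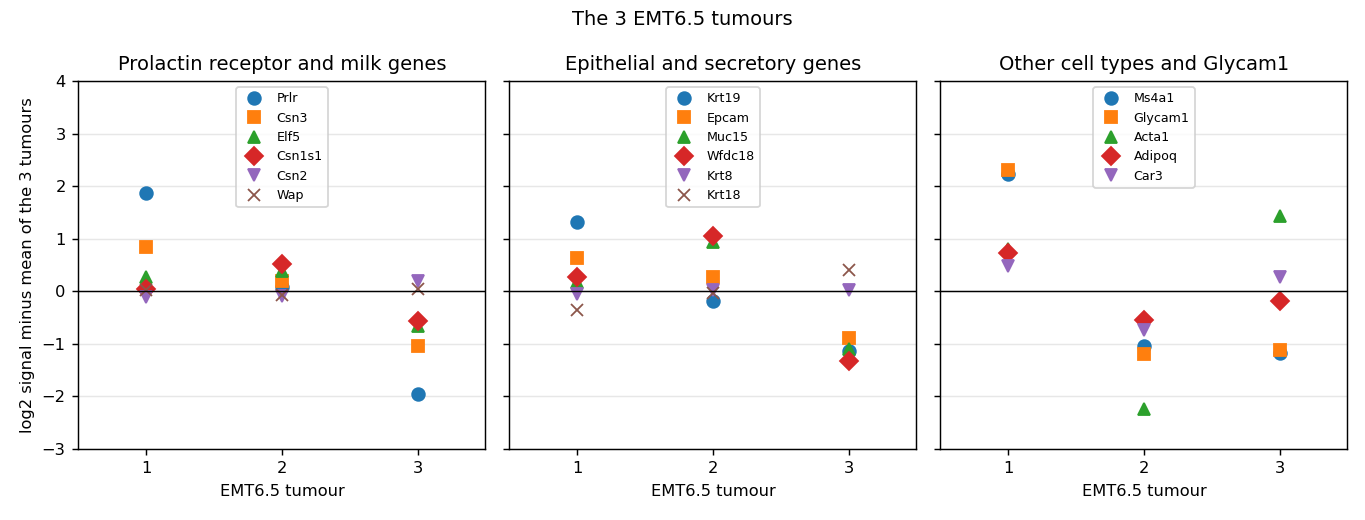
Log2 signal of 6 member genes (left), 6 epithelial or secretory genes (middle) and 5 other genes (right) in the 3 EMT6.5 tumours, each minus its own mean over the 3 tumours. Prlr, Csn3, Elf5, Csn1s1, Krt19, Epcam, Muc15 and Wfdc18 are lowest in tumour 3, the B cell gene Ms4a1 and Glycam1 are high only in tumour 1, and the muscle gene Acta1 is low in tumour 2.

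The genes whose profile over the 15 tumours lay closest to that of Prlr were found by the root mean square difference between centred log2 values. They were Tmem56 (0.43), Ptn (0.50), Krt19 (0.55), Clca2 (0.57), Expi (0.59), which is an older symbol of the whey acidic protein family gene Wfdc18, and Epcam (0.60). Ptn encodes the growth factor pleiotrophin. Tmem56, for instance, read 8.48, 7.09 and 5.25 in EMT6.5 and 6.95, 6.91 and 6.33 in EO771, while the EO771.LMB tumours read 5.69, 5.24 and 5.18. Closest to Elf5 were Btn1a1 (0.15), BC006965, Ehf and Hmcn1 (0.18 each), where Elf5 itself varied by 0.33. Ehf, an ETS factor gene like Elf5, read 6.02, 6.31 and 5.29 in EMT6.5 and 5.01 to 5.55 elsewhere. Closest to Csn3 were Mme (0.24), which encodes the peptidase neprilysin, Igfbp5 (0.35), 2900062L11Rik (0.37) and C130021I20Rik (0.38), where Csn3 itself varied by 0.65. All these values share the same arrays, and the likeness is a description.

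Glycam1 ran with Prlr in some types and not in others. Its log2 signals were 8.98, 8.98 and 5.11 in 67NR and 5.10, 5.0 and 5.10 in 4T1.2. The EO771 tumours read 10.05, 9.32 and 9.21, the EO771.LMB tumours 8.22, 5.02 and 5.07, and the EMT6.5 tumours 8.55, 5.04 and 5.12. The signal was thus either at about 5 or above 8 in a tumour, and 4T1.2, in which Prlr read 6.29 to 7.15, held no tumour of the high kind. EO771.LMB minus EO771 was -3.43 (standard error 1.10, adjusted p = 0.39 from limma) and 4T1.2 minus 67NR was -2.63 (standard error 1.10, adjusted p = 0.12). Glycam1 is also made by the high endothelial venules of lymph nodes, and a B cell gene ran in a partly similar order. Ms4a1, which encodes CD20, read 6.83, 7.07 and 5.62 in the 67NR tumours and 5.43, 5.04 and 5.52 in 4T1.2. The EO771 tumours read 8.49, 7.30 and 5.99, the EO771.LMB tumours 6.88, 5.50 and 5.20, and the EMT6.5 tumours 8.35, 5.08 and 4.94. In EO771 tumour 3 Glycam1 was high (9.21) while Ms4a1 was not. The mean level of the 10 B cell genes was 5.97 to 7.07 in EO771 and 5.58 to 6.18 in EO771.LMB. The part of such cells in Glycam1 was not tested.

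The prolactin pathway beyond the members was counted against the share of all clusters called, which was 17.8% for 4T1.2 minus 67NR and 0.0197% for EO771.LMB minus EO771. Whether the pairs differed in these genes was not tested. Of 22 signalling genes, 4 were called higher and 5 lower in 4T1.2 than in 67NR, with a median log2 difference of -0.03 against 0.05 over all clusters. Jak2, the kinase bound to the receptor, was higher by 1.26 (standard error 0.10, adjusted p = 3.3e-07 from limma). Nmi, whose product binds Stat proteins, was higher by 1.11, while the coactivator gene Ncoa1 (-1.09) and the docking protein gene Irs1 (-0.98) were lower. In EO771.LMB minus EO771, 0 of 22 were called, and the growth hormone receptor gene Ghr had a log2 difference of 0.30 (adjusted p = 0.81).

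Of 14 genes that prolactin induces in mammary epithelium, 2 were called higher and 1 lower in 4T1.2 than in 67NR (median 0.08). Socs2, a feedback inhibitor gene of the pathway, was higher by 0.52 (standard error 0.12, adjusted p = 0.006 from limma), as was the serotonin synthesis gene Tph1 (0.45), and Id2 was lower (-0.81). In the EO771 pair 0 of 14 were called, and Gjb6, a connexin gene, had a log2 difference of 0.43 (adjusted p = 0.46). Cish, another feedback inhibitor gene of Stat5 signalling, read 5.25, 5.66 and 4.60 in EMT6.5, and 4.54 to 5.38 elsewhere.

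Of 24 other milk and secretory genes, 4 were called higher and 3 lower in 4T1.2 than in 67NR (median -0.01). Lcn2, the lipocalin-2 gene, was higher by 3.60 (standard error 0.34, adjusted p = 3.0e-06 from limma) and Wfdc2 by 1.75, while Spp1 (-1.53), which encodes osteopontin, and the water channel gene Aqp5 (-0.84) were lower. Lcn2 and Spp1 are also expressed by cells of the immune system. In the EO771 pair 0 of 24 were called, 18 had a negative sign, and the median was -0.10 against 0.01 over all clusters. The share of all clusters with a negative sign is not given here. Besides Glycam1, the most different was Wfdc18 (-1.27, standard error 0.47, adjusted p = 0.48), which read 7.01, 6.97 and 6.93 in the EO771 tumours and 6.4, 5.51 and 5.20 in those of EO771.LMB.

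Genes of milk fat synthesis went both ways. Of 15, 2 were called higher and 3 lower in 4T1.2, among them Agpat6 (-1.11, adjusted p = 3.7e-05 from limma), Lpl (0.98), Elovl1 (-0.63) and the fatty acid synthase gene Fasn (0.41). In the EO771 pair 0 of 15 were called, with values of -1.41 for Thrsp (adjusted p = 0.15) and 0.97 for Lpin1 (adjusted p = 0.38). Of 9 measured neighbours in the casein region, 0 were called in either pair or among the 5 types. Cabs1 (0.33, adjusted p = 0.12) and Ambn (0.29) were the most different in the 4T1 pair, and Csn1s2b (0.37, adjusted p = 0.73) and Ambn (0.14) in the EO771 pair.

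Cell type markers were counted the same way. Of 24 luminal genes, 4 were called higher and 1 lower in 4T1.2, including Krt18 (3.78, standard error 0.21, adjusted p = 1.2e-08 from limma), the protease inhibitor genes Spint1 (2.46) and Spint2 (1.25), and Esr1 (-0.92), which encodes the oestrogen receptor. Of 12 myoepithelial genes, 2 were higher and 2 lower (Acta2 0.96, Cnn1 0.53, Trp63 -0.84 and Mylk -0.72). Of 17 adipocyte genes, Car3 (1.53) was higher and Lipe (-0.72) and Pnpla2 (-0.64) were lower. Of the 10 B cell genes 0 were called, led by Ms4a1 (-1.17) and Fcer2a (-0.81), and of the 10 muscle genes 0 were called, led by Tnnt3 (0.99) and Tnnc2 (0.54).

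In the EO771 pair no marker was called in its brightest cluster. Most adipocyte, luminal and B cell genes had a negative sign. So did 7 of 12 myoepithelial, 13 of 22 signalling and 2 of 10 muscle genes. The median over all clusters was 0.01, and the share of all clusters with a negative sign is not given here. Of 17 adipocyte genes, 15 had a negative sign, with a median of -0.20, and their mean level was 6.87 to 6.90 in EO771 against 6.5, 6.15 and 6.09 in the EO771.LMB tumours. Car3 differed by -2.60 (adjusted p = 0.083 from limma) and Cfd by -1.81 (adjusted p = 0.095). With each gene taken as the mean of its clusters, in a separate fit adjusted over genes, 3 adipocyte genes were called lower. The share of all genes called in that fit is not given here. Of 24 luminal genes, 17 had a negative sign, with a median of -0.17, and their mean level was 6.23 to 6.36 in EO771 and 6.04 to 6.19 in EO771.LMB. The most different were Krt19 (-0.70, adjusted p = 0.76) and Epcam (-0.56, adjusted p = 0.74). Of 10 B cell genes, 9 had a negative sign, with a median of -0.64, and Ms4a1 differed by -1.40. The myoepithelial list had a median of -0.03 (Jag1 0.57, Acta2 -0.52) and the muscle list of 0.15 (Myh4 0.59, Acta1 0.37). EO771.LMB tumour 1, which had the highest Prlr and Csn3 of its type, also had the highest mean adipocyte, luminal and B cell levels. The part of these cell types in the Prlr and Csn3 values was not tested.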

How the data were processed

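RNA of each whole primary tumour was measured on 1 Affymetrix Mouse Gene 1.0 ST array. The authors deposited log2 signals after background adjustment, quantile normalization and probe summarization. The methods describe this as GCRMA, but RMA and Partek 6.6 stand in the submitters' processing notes, so the algorithm is not settled. Signals of the 35556 clusters lay between 3.26 and 13.98 (array medians 6.32 to 6.44) and were not normalized further. A second deposited table held the same values (0 of 533340 differed). The authors' own fold changes and p-values and 30 further per-sample columns were left out. No detection values were used, and precision is limited by the number of arrays.

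Differences were tested in R 4.3.3 with limma 3.58.1, with type as the only term over 15 tumours and Benjamini-Hochberg adjustment over all clusters per comparison. The steps were tested on simulated data. List genes were represented by their brightest cluster, and 6 were found under an older symbol. The genes named are the members, up to 4 called genes per list and pair by size (or 2 where none was called), the 6, 4 and 4 genes closest to Prlr, Elf5 and Csn3, and Glycam1. Others (Muc15, Btn1a1, Ltf, Gata3, Krt8 and Cish) were chosen after their values were seen. Some genes that the rule names are not reported here. The members and lists were chosen with earlier results of these data known.

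The alternatives were the second table, centring on array medians, one-way analysis of variance, quantile normalization, a filter at the median signal, an intensity trend with a robust prior, only the types compared, each tumour left out, the tumour number as a block, an unadjusted p, and, added after the values were seen, a model without EMT6.5.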

Additional observations from a re-analysis of the deposited data

How the results depend on the processing

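The second deposited table gave the same calls. The count of member clusters called among the 5 types was 2, and it was 1 after centring on array medians, after quantile normalization, with one-way analysis of variance and with the replicate block, 5 at an unadjusted p, and 0 to 4 with each tumour left out. The 9 calls over the comparisons of 2 types became 5 after centring, after quantile normalization and with the replicate block. They became 4 over the clusters above the median signal, where Elf5, Csn1s2a and Wap were not tested and no tested call ended. With each tumour left out they became 5 to 21. At an unadjusted p there were 20, where 8.30% to 39.7% of all clusters passed per comparison. Fitting only the 2 types compared ended the Elf5 call, both Csn1s2a calls and Csn3 in EMT6.5 minus EO771.LMB. It also ended Stat5a and Wap in EO771 minus 67NR. One-way analysis of variance ended Csn3 in EO771.LMB minus 4T1.2, Csn1s2a in EMT6.5 minus 4T1.2 and Stat5a in EO771 minus 67NR. The shares of all clusters under other settings are not given here. The lowest count without 1 tumour came without EO771 tumour 3, and the counts of 21 and 4 came without EMT6.5 tumour 3. Counts of 0 among the types came without EO771.LMB tumour 2, EO771.LMB tumour 3 or EMT6.5 tumour 2. In 4T1.2 minus 67NR and in EO771.LMB minus EO771 the count stayed at 0 under all alternatives other than an unadjusted p, which gave 2 and 4 beside 29.5% and 8.30% of all clusters. For the difference between the pair changes it was 2 at an unadjusted p (22.0% of all clusters), 1 with EMT6.5 left out of the model and 0 to 1 with each tumour left out. Whether the tumour numbers pair the tumours was not settled. Deviations of same-numbered tumours correlated at -0.168 to 0.149 (median 0.021), and 4 of 30 pairs exceeded 0.1. Differently numbered tumours correlated at -0.165 to 0.213 (median -0.001), and 5 of 60 pairs exceeded 0.1. Of the 15 tumours, 8 correlated best with their own number.

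With each tumour left out, the log2 difference of the brighter Prlr cluster ran from -0.42 to 0.18 in 4T1.2 minus 67NR, that of Wap there from -0.17 to 0.01, and that of Csn2 in EO771.LMB minus EO771 from -0.07 to 0.13. No other difference given for a member turned its sign. The Prlr differences in the EO771 pair ran from -2.09 to -1.37 and from -1.76 to -1.15. The calls of Stat5a in EO771.LMB minus 67NR and of Wap in EMT6.5 minus EO771 held in all 24 and 22 alternatives at an adjusted p. The other calls held in 7 to 22 of 22 to 24. The cause of these changes was not tested. No alternative changes the arrays' low signal range, where 6 of the 9 genes lay. In EO771.LMB, the Prlr clusters exceeded the olfactory 95th percentile in 0 and 1 of 3 tumours, and Csn3 in 1.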
